A study of Homo sapiens with 4 samples.

Results

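Genes that respond to NF-kB in inflammation were followed between SW480 cells in which the homeobox transcription factor HOXA5 was knocked down and SW480 cells overexpressing it. Every probe set of the array that its annotation assigns to PTGS2, IL6, LCN2, ICAM1, BIRC3, IER3, NFKBIA, NFKBIZ, TNFAIP3 or RELB alone was taken. The genes were chosen with earlier results of these data known, so their counts are a description and not an unselected sample of NF-kB targets. This gave 15 of the 54613 non-control probe sets, for 9 of the 10 genes; ICAM1 had 3, PTGS2, NFKBIA, NFKBIZ and TNFAIP3 had 2 each, and the others had 1. BIRC3 was not analysed here, as no probe set in the annotation used here carries its symbol.

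SW480 is an established colorectal adenocarcinoma line, labelled Duke's type B, and both groups were grown in Dulbecco's modified Eagle's medium with fetal bovine serum. The design text describes transduction, and there were 2 arrays titled HOXA5 knock down and 2 titled HOXA5 overexpressing, with no untransduced or vector-control array used here. Differences are given as overexpressing minus knock-down, and the share of each manipulation in them cannot be told apart. The labels used here name neither the vectors nor whether a line was 1 clone, and they do not say whether replicates were separate cultures, so the p-values measure the spread between these arrays, which may be technical. HOXA5 itself was not analysed here, so the titles were not checked against the manipulated gene.

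NF-kB is a family of dimeric transcription factors built from the subunits RELA, RELB, REL, NFKB1 and NFKB2. In a resting cell the dimers are held by IkB proteins such as the product of NFKBIA; cytokines and microbial products activate the IKK kinases, IkB is degraded, and the freed dimers bind kB sites in the promoters of cytokine, adhesion and survival genes. Among these targets are genes of brakes on the pathway itself, so NFKBIA and TNFAIP3 are classical feedback genes. In the colon the pathway is known for linking epithelial inflammation to tumour growth, with the cyclooxygenase gene PTGS2 and the cytokine gene IL6 as its best studied outputs.

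Promoter sequences are shown for 3 genes that passed the test and for the feedback gene TNFAIP3, which did not, so that the kB-like letters can be seen beside the measured responses. They are the 250 bases before the RefSeq start of each gene in GRCh38.p14, in the direction of the gene. Capitals mark 10-base matches to the NF-kB consensus on either strand, except in PTGS2, where they mark overlapping matches to the looser pattern GGGNNNNNCC.
PTGS2, chr1:186680424-186680673, minus strand: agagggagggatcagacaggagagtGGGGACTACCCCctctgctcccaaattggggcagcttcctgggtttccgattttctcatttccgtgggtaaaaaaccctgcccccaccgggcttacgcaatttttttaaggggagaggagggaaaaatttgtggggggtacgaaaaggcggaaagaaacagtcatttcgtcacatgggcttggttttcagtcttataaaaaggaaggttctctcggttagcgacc
IL6, chr7:22726950-22727199, plus strand: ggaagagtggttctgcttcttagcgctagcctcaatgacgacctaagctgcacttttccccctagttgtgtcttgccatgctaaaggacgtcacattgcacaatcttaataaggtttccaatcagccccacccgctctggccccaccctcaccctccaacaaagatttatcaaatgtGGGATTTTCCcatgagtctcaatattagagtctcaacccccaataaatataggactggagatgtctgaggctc
NFKBIZ, chr3:101827740-101827989, plus strand: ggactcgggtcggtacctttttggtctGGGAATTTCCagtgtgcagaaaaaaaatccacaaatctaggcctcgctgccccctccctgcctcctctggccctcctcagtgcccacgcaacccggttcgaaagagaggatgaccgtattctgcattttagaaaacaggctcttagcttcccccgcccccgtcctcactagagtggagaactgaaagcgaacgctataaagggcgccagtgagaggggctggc
TNFAIP3, chr6:137867009-137867258, plus strand: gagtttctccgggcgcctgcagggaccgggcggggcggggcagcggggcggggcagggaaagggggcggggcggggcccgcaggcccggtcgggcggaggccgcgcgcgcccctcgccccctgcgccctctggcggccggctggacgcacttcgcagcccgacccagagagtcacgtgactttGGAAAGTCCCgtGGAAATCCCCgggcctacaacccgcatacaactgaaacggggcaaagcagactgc

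Of the 7 measured members with a promoter window in the RefSeq table (300 bases, of which 50 lie after the start), 5 held a consensus match in at least 1 window, whereas 7.09% of all 27305 genes did (5.91% of all 35116 windows). These were IL6, NFKBIZ, LCN2, NFKBIA and TNFAIP3; IER3 and RELB were not in the table. The match of IL6 was GGGATTTTCC, beginning 73 bases before the start, and that of the upstream start of NFKBIZ was GGGAATTTCC. A second start of NFKBIZ held a match as well. NFKBIA also held GGGAATTTCC, on the other strand, LCN2 held GGGACATTCC and TNFAIP3 held both GGGACTTTCC and GGGGATTTCC. PTGS2 and ICAM1 held only the looser pattern, which 61.7% of all genes hold in at least 1 window (58.7% of windows). Matching letters describe these windows and do not show binding. As the members were chosen as NF-kB responsive genes, a higher share than among all genes is no test of enrichment.

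Expression was measured as RMA log2 values, in which 1 unit is a doubling, on arrays with medians between 5.77 and 5.81. Replicates differed over all probe sets with an SD of 0.175 (knock-down) and 0.180 (overexpressing), and arrays from different groups with SDs of 0.284 to 0.310. RMA gives no detection call, so each level is also placed by its percentile among all probe sets, and levels are not compared between probe sets. Of 12 intestinal epithelial markers, 2 were called on the brightest probe set, both higher in overexpressing arrays (EPCAM and KRT19). Of all genes 2.86% were called, 1.86% higher. At an unadjusted p under 0.05 in limma stood 4 of the 12, beside 16.4% of all genes. By probe set 4 of 18 were higher, beside 1.36% of all probe sets. The epithelial keratins KRT18 and KRT8 were near the top of the scale in every array, at 13.79 to 13.86 and 12.84 to 13.03. EPCAM was at 3.65 to 3.81 in knock-down arrays and 8.75 to 8.80 in overexpressing arrays. In the same order KRT19 was at 4.65 to 4.74 and 9.08 on its brightest probe set. The differentiation keratin KRT20 was low in all 4 arrays, at 2.95 to 3.0. The markers named do not stand for the whole list, and values of the others are not given here. Over all 12 the median difference was 0.046, with a range of -0.11 to 5.05, and 3 had a mean level below the median of all probe sets. Of 9 leukocyte, 10 fibroblast and 7 endothelial markers measured, none passed on its brightest probe set in limma (0, 2 and 0 at an unadjusted p under 0.05, beside 16.4% of all genes). A dimmer probe set of the fibroblast marker LUM did rise, from 2.48 and 2.66 to 4.82 and 4.65 (adjusted p = 0.000793). The summed linear level was 411 to 429 in knock-down and 390 to 419 in overexpressing arrays for leukocyte markers, 1110 to 1171 and 1194 to 1210 for fibroblast markers, and 425 to 435 and 426 to 459 for endothelial markers. On this scale no marker was at 0, and the leukocyte marker PTPRC was at 3.39 to 4.19. As a measure of RNA integrity, the ACTB control read higher at its 3' end than at its 5' end by 0.41 and 0.46 after knock-down and by 0.43 and 0.30 after overexpression, whereas the GAPDH control differed by -0.017 and 0.025 and by -0.036 and -0.004. The part of these markers and of RNA integrity in the results was not tested.

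The comparison asked which NF-kB responsive genes differ between overexpressing and knock-down cells. In the overexpressing arrays 4 of the 9 genes, PTGS2, IL6, IER3 and NFKBIZ, rose on at least 1 probe set and none fell. By probe set, 5 of 15 were higher at an adjusted p of 0.05 in limma, beside 1.97% of all probe sets called (1.36% higher and 0.613% lower). The median difference was 0.42 over the 15 probe sets and -0.015 over all probe sets. In 12 of the 15 both overexpressing arrays lay above both knock-down arrays, an arrangement found in 18.7% of all probe sets, and in none did both lie below (24.5% of all). With 2 arrays against 2, an exact two-sided permutation test of a single probe set cannot go below p = 0.333, so the calls rest on a spread shared across probe sets. All 5 calls were lost whichever array was left out, with adjusted p from 0.0635 (IER3 without knock-down replicate 2) to 0.366 (NFKBIZ without overexpressing replicate 2), while the differences stayed between 0.54 and 1.69.

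**Figure D1:**
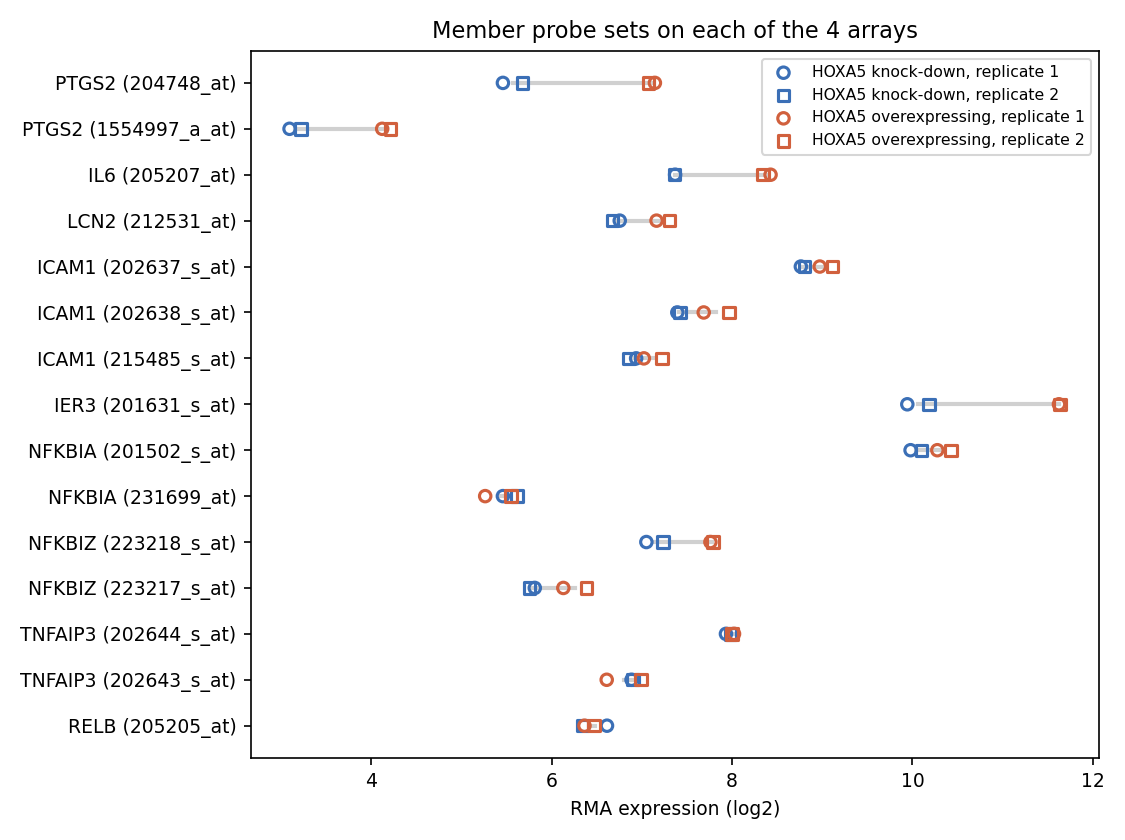
RMA log2 expression (horizontal axis) of the 15 probe sets on each of the 4 arrays; blue symbols are knock-down arrays, orange symbols overexpressing arrays, circles replicate 1, squares replicate 2, and the grey line joins the group means. PTGS2, IL6 and IER3 show the widest gaps between the groups, and the groups overlap for RELB and for the dimmer probe sets of NFKBIA and TNFAIP3.

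PTGS2 encodes cyclooxygenase-2, the inducible enzyme that makes prostaglandin H2 from arachidonic acid and the target of non-steroidal anti-inflammatory drugs. Its brighter probe set (204748_at) read 5.46 and 5.68 in knock-down replicates 1 and 2 and 7.15 and 7.07 in overexpressing replicates 1 and 2. Both overexpressing arrays stood far above both knock-down arrays, relative to the spread within each group. Expression rose 2.91-fold (95% interval 2.44 to 3.47), from 5.57 ± 0.15 to 7.11 ± 0.05 (SD, n = 2 per group), with an adjusted p of 0.00206 in limma. This took it from percentile 46.3 to percentile 70.6 of all probe sets. Its dimmer probe set (1554997_a_at) read 3.10, 3.22, 4.12 and 4.22 in the same order and rose 2.01-fold (adjusted p = 0.00647). That probe set lay at percentile 10 after knock-down, low on the RMA scale.

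IL6, an inflammatory cytokine that signals through IL6ST and STAT3, is represented by 1 probe set (205207_at). It read 7.37 and 7.36 after knock-down and 8.43 and 8.34 after overexpression. The replicates of each group lay within 0.1 of each other and the groups were 0.98 apart at their nearest. Expression rose 2.03-fold (95% interval 1.76 to 2.34), from 7.36 ± 0.006 to 8.39 ± 0.06 (SD, n = 2 per group), with an adjusted p of 0.00428 in limma. Its percentile went from 73.6 to 83.1.

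LCN2 encodes lipocalin-2, a secreted protein that binds bacterial siderophores and is used as a marker of gut inflammation. Its single probe set read 6.76 and 6.68 after knock-down and 7.16 and 7.31 after overexpression. Both overexpressing arrays thus lay above both knock-down arrays, as in 18.7% of all probe sets. The difference was 0.52 ± 0.09 (SE) and did not pass at an adjusted p of 0.0621 in limma. In a limma fit with 1 probe set per gene its SE was 0.0859 instead of 0.0919, and it passed at an adjusted p of 0.0265.

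ICAM1, the adhesion molecule that leukocyte integrins bind, did not pass on any of its 3 probe sets. The brightest read 8.76 and 8.81 after knock-down and 8.97 and 9.12 after overexpression, a difference of 0.26 (95% interval 0.04 to 0.48, adjusted p = 0.265 in limma). The others differed by 0.42 (adjusted p = 0.172) and 0.23 (adjusted p = 0.383). On all 3 both overexpressing arrays lay above both knock-down arrays, and overexpressing replicate 2 was the highest array.

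**Figure D2:**
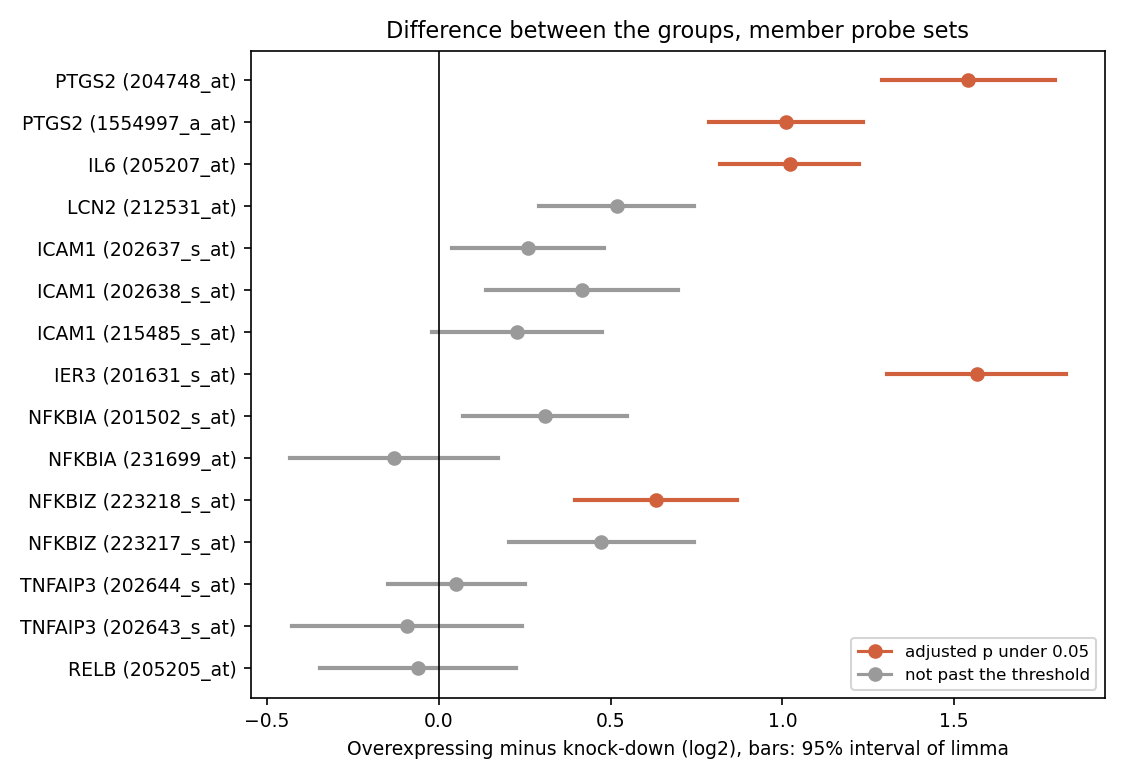
Difference in RMA log2 expression (overexpressing minus knock-down, horizontal axis) for the 15 probe sets, with the 95% interval of limma as bars; orange marks an adjusted p under 0.05 and grey the rest. Both probe sets of PTGS2 and those of IL6, IER3 and 1 of NFKBIZ are orange, and only RELB and 1 probe set each of NFKBIA and TNFAIP3 lie below 0.

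IER3, also called IEX-1, is an immediate-early gene of stress and cytokine signalling whose product affects cell survival. Its probe set (201631_s_at) read 9.94 and 10.18 after knock-down and 11.62 and 11.64 after overexpression. It rose 2.96-fold (95% interval 2.47 to 3.54), from 10.06 ± 0.17 to 11.63 ± 0.008 (SD, n = 2 per group), with an adjusted p of 0.00219 in limma. This was the largest difference of the 15 (1.57 on the log2 scale), exceeded by 195 of all probe sets (0.357%). It was high in both groups, at percentiles 93.4 and 97.9.

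Of the 3 inducible regulators of the pathway itself, 1 passed. NFKBIZ encodes IkB-zeta, an inducible nuclear IkB protein that acts with NF-kB on secondary target genes, including LCN2 and IL6. Its brighter probe set (223218_s_at) read 7.05 and 7.24 after knock-down and 7.76 and 7.79 after overexpression. It rose 1.55-fold (95% interval 1.32 to 1.83), with an adjusted p of 0.0378 in limma. The call ended with the replicate number as a block (adjusted p = 0.0989) and at a threshold of 0.01. The dimmer probe set read 5.81 and 5.75 against 6.13 and 6.38, a difference of 0.47 that did not pass (adjusted p = 0.122 in limma). Here too both overexpressing arrays lay above both knock-down arrays, as in 18.7% of all probe sets.

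NFKBIA encodes IkB-alpha, the inhibitor that retains NF-kB in the cytoplasm and is resynthesised on its activation. Its brighter probe set (201502_s_at) read 9.98 and 10.10 after knock-down and 10.28 and 10.43 after overexpression. The difference of 0.31 (95% interval 0.07 to 0.55) did not pass (adjusted p = 0.225 in limma). The dimmer probe set read 5.46 and 5.62 against 5.26 and 5.55, with the groups overlapping and a difference of -0.13.

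TNFAIP3 encodes A20, a ubiquitin-editing brake on IKK activation. Its brighter probe set (202644_s_at) read 7.93 and 7.99 after knock-down and 8.02 and 8.0 after overexpression, a difference of 0.05 (95% interval -0.15 to 0.25, adjusted p = 0.856 in limma). On its dimmer probe set overexpressing replicate 1 was the lowest array at 6.61 and overexpressing replicate 2 the highest at 6.99, with 6.89 and 6.90 between them in the knock-down arrays. RELB, the subunit of the non-canonical branch, read 6.61 and 6.34 against 6.36 and 6.47, a difference of -0.06 (95% interval -0.35 to 0.22, adjusted p = 0.891).

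**Figure D3:**
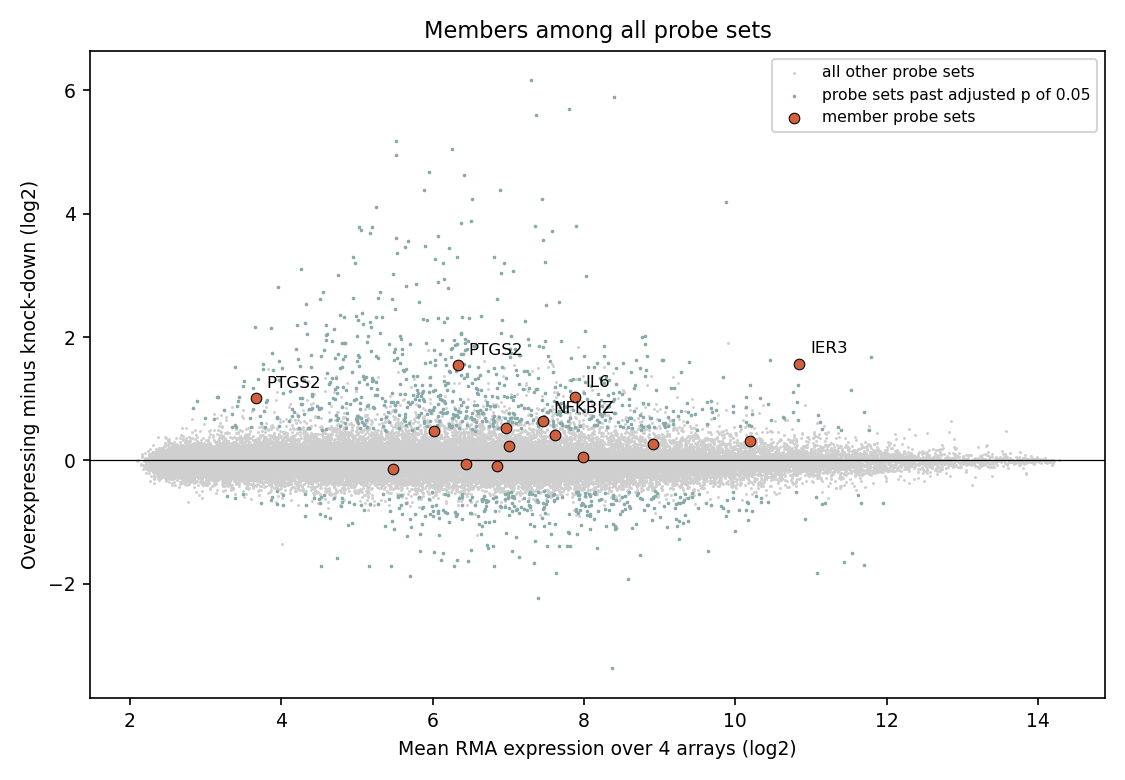
Difference in RMA log2 expression (overexpressing minus knock-down) against the mean log2 expression over the 4 arrays, for all 54613 probe sets (grey), those at an adjusted p under 0.05 (grey-green) and the 15 member probe sets (orange). IER3 combines a high mean level with a difference of 1.57, whereas the dimmer PTGS2 probe set is called from a low level.

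The rest of the pathway was described with 9 lists of other genes, taking for each gene its brightest probe set. Of 118 genes measured, 6 were higher and 2 lower, with a median difference of -0.002; of all 19775 genes, 2.86% were called (1.86% higher and 0.996% lower), with a median of -0.019. At an unadjusted p under 0.05 stood 32 of the 118 genes and 16.4% of all genes, the share beside which the unadjusted counts of each list are to be read. None of these 8 calls remained when any single array was left out.

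The core machinery showed no call in limma. None of the 4 other NF-kB subunits passed (0 at an unadjusted p under 0.05); RELA differed by -0.10 and NFKB1 by -0.09. None of 3 IkB genes passed either (0 at an unadjusted p under 0.05), with NFKBIB at -0.12 and NFKBIE at -0.02. Among 20 kinases and adaptors 0 passed (1 at an unadjusted p under 0.05, beside 16.4% of all genes), and their range was -0.25 to 0.21; IRAK1, a kinase below interleukin-1 and Toll-like receptors, differed by -0.04, and TBK1 by -0.14. Of 7 ubiquitin-related brakes 0 passed (1 at an unadjusted p under 0.05), with TAX1BP1 at 0.02 and N4BP1 at -0.006.

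Ligand genes gave no call and receptor genes gave 2. None of 9 ligand genes passed in limma (3 at an unadjusted p under 0.05, beside 16.4% of all genes), with the interleukin gene IL18 at 0.36 (adjusted p = 0.135) and LTB at 0.49 (adjusted p = 0.179). Of 12 receptors, 1 was higher and 1 lower in limma, beside 1.86% higher and 0.996% lower of all genes. At an unadjusted p under 0.05 stood 3 of the 12, beside 16.4% of all genes. TNFRSF1B, which encodes TNF receptor type II, read 6.53 and 6.32 after knock-down and 7.74 and 7.88 after overexpression, a 2.60-fold rise (adjusted p = 0.00374). TLR3, the endosomal receptor for double-stranded RNA, read 7.78 and 8.03 against 6.95 and 7.01 and fell by 0.93 on the log2 scale (adjusted p = 0.0158). A second probe set of TLR3 differed by -0.90 (adjusted p = 0.0109) and the dimmest by -0.19.

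Of 37 other target genes, 4 rose and 0 fell, beside 1.86% higher and 0.996% lower of all genes, with a median of 0.07. At an unadjusted p under 0.05 in limma stood 13, in either direction, beside 16.4% of all genes. By probe set 6 of 78 were higher and 0 lower, beside 1.36% and 0.613% of all probe sets. The 4 genes that rose were the chemokine genes CCL20, CXCL1 and CXCL2, which attract lymphocytes and neutrophils, and TNFAIP8, an apoptosis regulator. CCL20 read 4.58 and 4.23 against 5.61 and 5.55 (adjusted p = 0.0133 in limma), and CXCL1 read 5.68 and 5.70 against 6.73 and 6.50 (adjusted p = 0.0138). CXCL2 rose by 0.68 (adjusted p = 0.0306) on the brightest of its probe sets and differed by 0.01 and 0.00 on dimmer ones. TNFAIP8 rose by 0.99 (adjusted p = 0.0139), and by 0.92 on another probe set (adjusted p = 0.008), while the dimmest differed by 0.25. Other classical targets did not pass: SOD2, the mitochondrial superoxide dismutase, stood at -0.40 (adjusted p = 0.166), IL32 at -0.46 (adjusted p = 0.108) and CXCL8 at 0.30 (adjusted p = 0.424); these 3 were named after their values were seen.

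**Figure D4:**
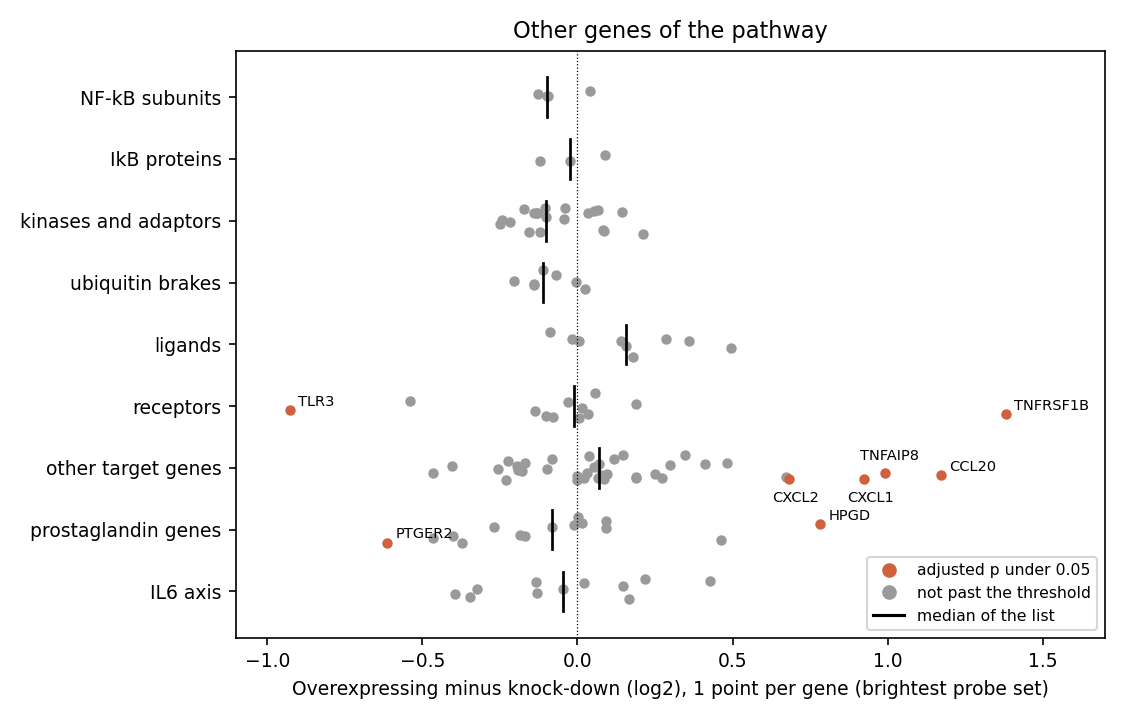
Difference in RMA log2 expression (overexpressing minus knock-down, horizontal axis) of the other pathway genes, 1 point per gene for its brightest probe set, in 9 lists; orange points have an adjusted p under 0.05 and the black bar is the median of the list. The subunits, IkB genes, kinases and brakes lie between -0.25 and 0.21, and the called genes are receptors, other targets and prostaglandin genes.

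The neighbours of PTGS2 and IL6 in their pathways gave 1 higher and 1 lower gene on their brightest probe sets. Of 15 genes of prostaglandin synthesis, breakdown and reception, HPGD rose and PTGER2 fell (6 at an unadjusted p under 0.05, beside 16.4% of all genes). By probe set 3 of 42 were higher and 1 lower in limma, beside 1.36% and 0.613% of all probe sets. HPGD, which inactivates prostaglandins, rose from 3.77 ± 0.02 to 4.56 ± 0.006 (SD, n = 2 per group), low on the scale in both groups (percentiles 18.3 and 29.1), with an adjusted p of 0.00975 in limma. PTGER2, the EP2 receptor for prostaglandin E2, read 5.07 and 4.94 against 4.37 and 4.41 and fell by 0.61 on the log2 scale (adjusted p = 0.032). PTGS1, the constitutive cyclooxygenase, differed by -0.40 (adjusted p = 0.257) and was named after its value was seen. None of 11 genes of IL6 signalling and its relatives passed on the brightest probe set in limma (5 at an unadjusted p under 0.05, beside 16.4% of all genes). IL6ST, the shared receptor subunit, differed by 0.22 (adjusted p = 0.327), and STAT3, the transcription factor below it, by -0.32 (adjusted p = 0.217). For IL11, named after its values were seen, a dimmer probe set read 6.10 and 6.44 against 5.01 and 5.08 (adjusted p = 0.0109), while the brightest differed by -0.05.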

How the data were processed

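The deposited table holds log2 expression values of 54675 Affymetrix probe sets on 4 arrays, made by the authors with RMA; the submitters' processing notes name the affy package too. No version or genome build is stated there. Probe sets were named through GEO's platform annotation: 62 were controls and left out, 41091 had 1 symbol, 1801 several and 11721 none; 41037 matched a current RefSeq gene. All 54613 others entered limma (version 3.58.1, R 4.3.3), with lmFit on the group and eBayes (2 residual degrees of freedom, prior of 3.91), two-sided, Benjamini-Hochberg adjustment over all of them and a threshold of 0.05. On simulated data for these 54613 probe sets, 50 were changed at each size on the log2 scale. The fit recovered 0% of changes of 0.5, 66% of changes of 1 and 98% of changes of 1.5 and of 2. Fewer probe sets were changed there than the 1078 called in the data, and the cut-off of the adjustment depends on that number. The shares recovered are thus not those of the fit to the data, where NFKBIZ was called at a difference of 0.63. There were 11 false calls, the same number for every size. It is to be read beside all calls made in the simulation, not beside the 50 of 1 size or all probe sets. Lists used the probe set with the highest mean of each gene. The genes and lists were chosen with earlier results of these data known. Named were all members, the called genes of each list or otherwise its 2 with the highest mean, and the genes said to be chosen later. Alternatives covered the unit of testing, moderation, a replicate block, scaling, a filter on dim probe sets, the threshold and leaving out each array. The number of arrays limits the precision. Promoters were searched in Python 3.11.15.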

Additional observations from a re-analysis of the deposited data

How the results depend on the processing

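The calls on both PTGS2 probe sets, IL6 and IER3 held under all alternatives that used all 4 arrays and tested them. NFKBIZ did not pass at an adjusted p of 0.01, nor with the replicate number as a block; the block changed no other member call, and same-numbered arrays deviated together at r = 0.146 over 2 pairs, which the labels do not call paired. LCN2 passed under 7 of its 14 alternatives, among them the looser threshold of 0.10, where its adjusted p of 0.0621 in limma was unchanged. Its lowest adjusted p was 0.0163, in the fit on the mean of the probe sets of a gene. It did not pass with the replicate block (0.149), with arrays centred on their medians (0.054), at 0.01 or without any 1 array. Member probe sets called, 5 here, came to 4 to 6 with all arrays where probe sets were tested. With 1 value per gene, 5 of the 9 genes were called, LCN2 among them. None of the member calls remained in a limma fit that left out any 1 array. Over all probe sets, 1078 were called here, 2437 with an intensity trend and robust moderation, 443 with the replicate block, 386 at 0.01, 1916 at 0.10 and 15 to 61 without 1 array. The 6 higher pathway genes became 10 with the trend, 1 with the block and 2 at 0.01, and none remained without any 1 array. The 2 lower ones became 7 with the trend, 5 with the mean of the probe sets of a gene and 0 at 0.01. With the block they became 0 (15 at an unadjusted p under 0.05 in limma, with no share of all genes given for that fit). None of the lower calls remained without any 1 array. Signs turned only for differences near 0 that never passed: TNFAIP3 was -0.020 as the mean of its probe sets, and without 1 array its dimmer probe set ranged from -0.283 to 0.0996, the dimmer one of NFKBIA from -0.274 to 0.0115 and RELB from -0.198 to 0.0768. A fit without 1 array assumes that the lone array of its group varies like the others, and it has fewer arrays; the other causes were not tested.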
